A study of Mus musculus with 1 sample.

Results

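The nuclear genes for the subunits of the oxidative phosphorylation (OXPHOS) system were examined for the length and base composition of their mRNA poly(A) tails. Members were chosen by symbol alone among the protein-coding genes of the GENCODE vM21 annotation (GRCm38, also called mm10). Taken were symbols that start with Ndufa, Ndufb, Ndufc, Ndufs or Ndufv and a digit, with Uqcr, with Cox4 to Cox8 or with Atp5, together with Sdha to Sdhd, Cyc1 and Cycs. The rule named 87 genes. Of these, 73 had at least 10 transcripts and are described as members with a gene tail, out of 6754 nuclear protein-coding genes that reached that number. They comprised 32 genes of complex I, 4 of complex II, 9 of complex III, 12 of complex IV and 15 of complex V, plus Cycs. No tail value entered the choice.

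Tails were measured by PAIso-seq, a PacBio method that copies an mRNA together with its tail into circular cDNA and reads the circle in repeated passes. The cells were wild-type mouse cells of the ICR strain, taken 24 h after embryonic stem cells had begun to turn into epiblast-like cells (24h-EpiLCs), which are leaving naïve for formative pluripotency. They grew on Matrigel in N2B27 medium with activin A, bFGF and KSR, and no other condition was analysed here. A single library pool held 2 barcoded replicates, named here by their barcode number because the labels tie neither barcode to a replicate. The study calls its replicates independent without saying whether they were separate cultures, so their spread may be in part technical. With 1 group there was no contrast between conditions and no test was possible. Differences are therefore set beside the spread of the 2 replicates.

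OXPHOS complexes I to IV pass electrons from NADH and succinate to oxygen in the inner mitochondrial membrane, and complex V, the ATP synthase, uses the proton gradient that results to make ATP. Most subunits are encoded in the nucleus and imported, while a small set of hydrophobic core subunits is encoded in mitochondrial DNA. Pluripotent cells are known to shift the balance between respiration and glycolysis as they leave the naïve state. The poly(A) tail is added in the nucleus, binds poly(A)-binding protein and is shortened by deadenylases in the cytoplasm.

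Reads with at least 7 passes numbered 354259 in replicate 1 and 593361 in replicate 2, of which 246316 and 455660 were assigned to nuclear genes. Members gave 5167 and 7667 transcripts, or 2.10% (95% Wilson interval 2.04 to 2.16) and 1.68% (1.65 to 1.72) of the nuclear transcripts. The lower share in replicate 2 went with a lower share of short genes as a whole, since genes with a coding length of at most 600 nt made 15.5% of nuclear protein-coding transcripts in replicate 1 and 12.8% in replicate 2. In bulk RNA, fewer cells that use a gene and less RNA per cell cannot be told apart. The defining markers fitted the label, with 840 transcripts of 4 of 4 pluripotency genes and 1096 of 6 of 6 formative genes, against 2 transcripts over 5 fibroblast genes, 1 over 4 endoderm genes and 21 over 4 heart and muscle genes. Naïve markers were also present, with 585 transcripts over 6 genes. Intervals of shares cover counting error only, because reads carry no molecular identifiers.

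Of the 14 named genes without a gene tail, 7 had no transcript and 7 had 1 to 9. Those at 0 were Ndufs5, a second Atp5o gene that overlaps the first, and the tissue-restricted complex IV isoforms Cox4i2, Cox6a2, Cox7b2, Cox8b and Cox8c. A count of 0 allows a share of up to 0.00122% of the nuclear transcripts of replicate 1 and 0.000658% of those of replicate 2. Cox6b2 had 7 transcripts, Ndufa3 and Ndufb4 had 4 each, Atp5s had 3, Atp5g2 had 2, and Ndufa4l2 and Ndufb2 had 1 each. In each of the Cox4i, Cox6a, Cox6b, Cox7b and Cox8 pairs, most transcripts thus came from the widely expressed form, as with Cox4i1 (415 transcripts) against Cox4i2 (0). The Cox7a family was the exception in being detected throughout, with 101 transcripts of Cox7a2, 80 of Cox7a2l, which encodes a supercomplex assembly factor, and 15 of Cox7a1, the heart and muscle form.

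The tail of a gene was taken as the geometric mean over its transcripts. The median gene tail of the 73 members was 99.7 nt, with quartiles at 87.4 and 109.2 nt. The 6681 other nuclear protein-coding genes had a median of 75.3 nt. In replicate 1 the members' median was 99.5 nt against 76.9 nt for the others, and in replicate 2 it was 97.3 nt against 75.5 nt. The pooled difference was 24.4 nt. Taken per replicate, over the 66 and 69 members with at least 10 transcripts there, it was 22.2 ± 0.536 nt (mean ± SD, n = 2). That mean was many times the spread between replicates. Members therefore carried longer tails than the general gene in both libraries.

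A gene tail over 75 nt, used here as the boundary between short and long tails, was reached by 68 of 73 members (93.2%), where 51.0% of all tested genes reached it. Over 100 nt were 35 members (47.9%), against 8.99% of all tested genes. With 10 or more transcripts required per replicate, 57 of 66 members lay above 75 nt in both replicates (86.4%), against 38.5% of genes tested in that way. The 5 members at or below 75 nt were Sdhd (11 transcripts), Atp5l (10), Ndufs4 (28), Uqcrb (55) and Ndufs1 (159), so 3 of them rested on fewer than 30 transcripts. Each held 1 to 4 reads with tails of 1 to 5 nt. Over tails of at least 15 nt, Sdhd had 78.1 nt, Atp5l 100.3 nt, Ndufs4 87.6 nt, Uqcrb 91.3 nt and Ndufs1 77.0 nt. That cut can only raise a gene tail, and the share of all genes over 75 nt after it was not computed. The members' median was then 100.9 nt, 18.4 nt above that of the other genes. Ndufs4 at 74.7 nt lay just under the boundary and Cyc1 at 75.3 nt just over it.

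**Figure D1:**
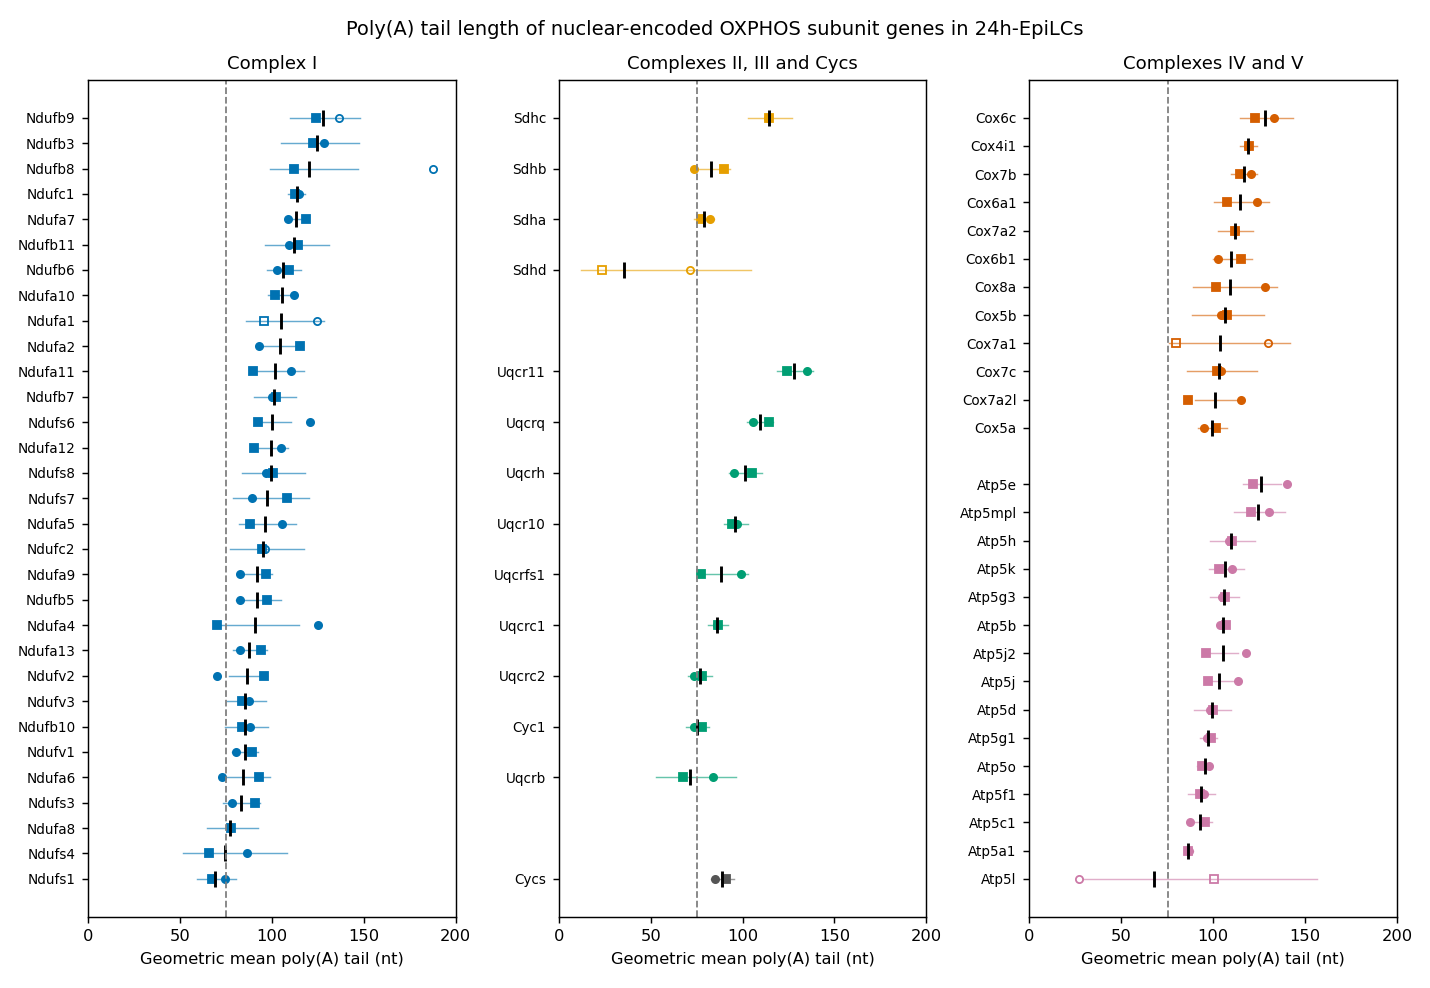
Geometric mean tail length in nt of the members by complex, 1 member left out, with replicate 1 as circles, replicate 2 as squares (open where a replicate had under 10 transcripts), the pooled value as a black bar and its 95% interval over transcripts as a line. The dashed line is the median of all other nuclear protein-coding genes (75.3 nt), and pooled values run from 35.4 nt (Sdhd) to 128 nt (Uqcr11).

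The complexes were then compared with each other. Complex IV had the longest median gene tail at 109.7 nt, followed by complex V at 103 nt, complex I at 96.9 nt, complex III at 88.1 nt and complex II at 80.8 nt. By replicate, complex IV had 115 and 108 nt, complex V 104 and 99.4 nt, complex I 92.1 and 94.7 nt, complex III 95.5 and 86.6 nt, and complex II 82.6 and 89.7 nt. Complexes IV and V took the first and second place in both replicates, whereas complexes I, II and III changed places between them.

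Set against the replicate spread, complex IV exceeded complex III by 20.5 ± 0.975 nt (mean ± SD, n = 2) and complex V by 9.79 ± 1.95 nt. It exceeded complex I by 18.1 ± 7.19 nt. Complex V exceeded complex I by 8.32 ± 5.23 nt. With both replicates pooled, complex IV exceeded complex III by 21.5 nt, complex V by 6.33 nt and complex I by 12.7 nt. Complex V then exceeded complex I by 6.40 nt. Complexes I and III could not be ordered, as the difference had opposite signs in the 2 replicates (complex III was 3.39 nt higher in replicate 1 and 8.16 nt lower in replicate 2). The order of complexes II and III also turned round. Of the complex IV genes, 12 of 12 lay over 75 nt and 11 of 12 over 100 nt. Over 100 nt were 8 of 15 genes of complex V, 12 of 32 of complex I, 3 of 9 of complex III and 1 of 4 of complex II. Coding length was not matched here, with medians of 256.5 nt in complex IV, 426 nt in V and 487.5 nt in I. Up to 300 nt, the median gene tail was 110 nt in complex IV (7 genes), 116 nt in V (4) and 104.6 nt in I (4). From 300 to 500 nt it was 103.7 nt (4 genes), 103.3 nt (5) and 100.5 nt (12). Up to 300 nt, complex V thus lay above complex IV, by replicate in replicate 1 only (124 against 116 nt).

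**Figure D2:**
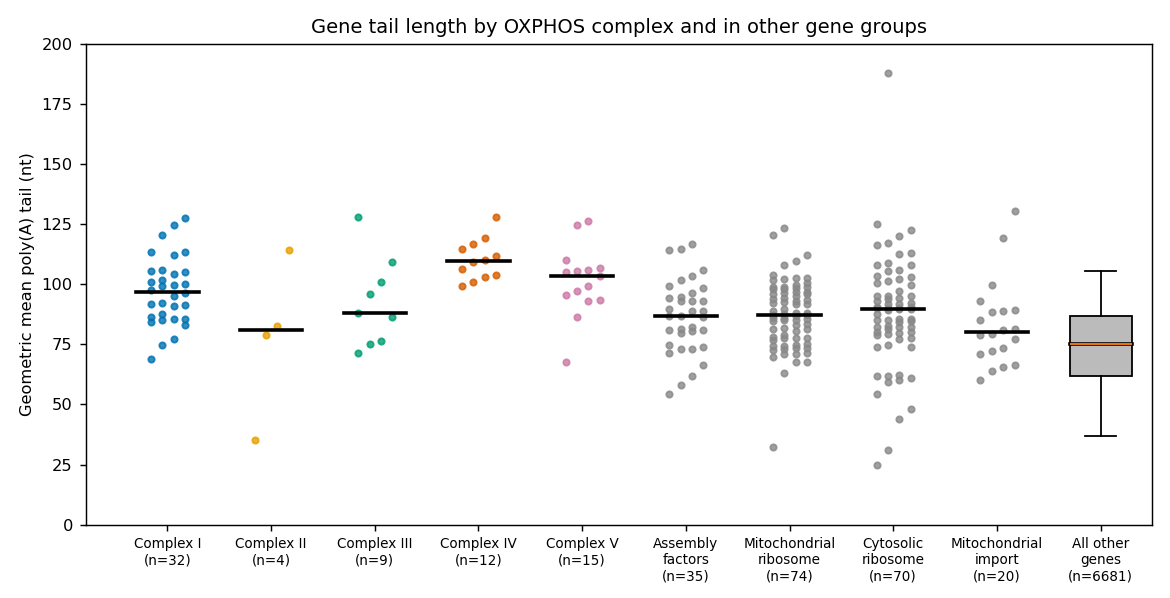
Gene tail length in nt for the members of complexes I to V and for other gene groups, each point a gene and each black line the median of its group. The box gives quartiles and median (75.3 nt) of all other genes, with whiskers at the 5th and 95th percentile; complex IV (109.7 nt) has the highest median.

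Complex IV, cytochrome c oxidase, hands electrons to oxygen. Its catalytic core is encoded in mitochondrial DNA, so the nuclear genes counted here encode supporting subunits. Their gene tails ranged from 99.2 nt (Cox5a) to 128 nt (Cox6c). Cox6c (ENSMUSG00000014313, GRCm38 chromosome 15, 35925886 to 35938246) had a gene tail of 133 nt in replicate 1 and 123 nt in replicate 2, over 111 transcripts. Cox4i1, the common form of subunit 4 and the complex IV gene with most transcripts, had 119 nt in each replicate over 415 transcripts. Cox7b had 121 and 115 nt over 275 transcripts. These 3 genes were among the 5 longest of the 39 members that had 30 or more transcripts per replicate, and in each of them both replicates lay far above the general median.

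Within complex IV, isoforms of a subunit could be compared in the Cox7a family only. Cox7a2 had 112 nt in each replicate. Cox7a1 had 130.1 nt over 8 transcripts in replicate 1 and 80.04 nt over 7 in replicate 2, an SD of 35.4 nt that covers the value of Cox7a2. Cox7a2l had 115 and 86.4 nt over 80 transcripts. Among the other common forms, Cox6a1 had 124 and 108 nt, Cox6b1 103 and 115 nt, and Cox8a 128 and 101 nt. Every one of these values exceeded 75 nt.

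Complex V, the ATP synthase, consists of a catalytic F1 head with a central stalk, a peripheral stalk, a proton-driven ring of c subunits and accessory membrane subunits. The median gene tail was 99.1 nt for 5 genes of the head and central stalk, 99.4 nt for 4 genes of the peripheral stalk and 106 nt for 4 accessory genes. Single genes varied within each of these sets. In the head, Atp5a1, the alpha subunit, had 86.9 and 86.4 nt over 2184 transcripts. Atp5b, the catalytic beta subunit, had 104 and 107 nt over 1856 transcripts. The tails of these partners, which alternate in the same ring, differed by far more than the replicates of either, and their intervals over transcripts (84.3 to 88.9 nt and 103 to 107.9 nt) did not meet. In the central stalk, Atp5c1 (gamma) had 87.3 and 95.6 nt, Atp5d (delta) 98.5 and 99.8 nt, and Atp5e (epsilon) 140.0 and 121 nt. The small epsilon subunit thus stood highest of the 5 in both replicates, on 14 and 37 transcripts.

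The ring subunit c is made from 3 genes that encode the same mature protein with different import sequences. Atp5g1 had 96.5 and 98.9 nt over 431 transcripts, and Atp5g3 had 105 and 107 nt over 147. Atp5g3 was thus longer in both replicates, by more than the replicate spread of either gene. Their intervals over transcripts overlapped, with 92.9 to 102 nt for Atp5g1 and 98.4 to 113.9 nt for Atp5g3. Atp5g2 had only 2 transcripts and no gene tail. Pseudogene copies also held reads. Gm10231, identical to Atp5g2 over 441 nt, had 33 with 108.9 nt, and Gm10039, a copy of Atp5g1, had 106 with 101 nt. Which gene these reads came from was not tested.

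Complex I, the NADH dehydrogenase, ranged from 69.03 nt (Ndufs1) to 128 nt (Ndufb9, 23 transcripts). Its 7 nuclear core subunits form its redox-active part. The core genes had a median of 86.4 nt, and none of the 7 exceeded 100 nt, against 12 of 25 accessory genes with a median of 99.9 nt. Accessory genes exceeded core genes by 22.1 nt in replicate 1 and by 4.04 nt in replicate 2. The direction was shared, but the SD of 12.7 nt was about as large as the mean difference of 13.1 nt.

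Among the core genes, Ndufs1 (ENSMUSG00000025968, chromosome 1, 63143596 to 63176833), the largest iron-sulfur subunit, had 74.6 and 67.3 nt over 159 transcripts, the shortest of the 39 deeply read members. Ndufs3 had 78.3 and 90.7 nt, Ndufv1, the flavin-binding subunit, 80.6 and 89.2 nt, and Ndufv2 70.3 and 95.5 nt. Ndufs7 had 89.1 and 108 nt, and Ndufs8 96.5 and 100.8 nt. Most of these core genes were thus near or above 75 nt, with the replicates of Ndufv2 on either side. On the accessory side, Ndufa7 had 109 and 118 nt over 559 transcripts, the most in complex I, and Ndufc1 had 115 and 112 nt over 258.

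Ndufa4 showed the largest replicate difference among the 39 deeply read members. It is named for complex I, though its protein is now placed in complex IV. Its gene tail was 125 nt over 49 transcripts of replicate 1 and 70.0 nt over 60 of replicate 2, a log2 difference of -0.84, where the median absolute difference of the 39 genes was 0.096. In replicate 2, 7 of the 60 transcripts carried a tail read as a single A, and none of the 49 in replicate 1 did. Over tails of at least 15 nt, Ndufa4 had 125 and 123 nt, so the difference lay in those 7 reads. Of the 39 genes, 18 were longer in replicate 1 and 21 in replicate 2, and 7 differed by more than 0.2 in log2.

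Complex II, the succinate dehydrogenase, is the sole complex with every subunit encoded in the nucleus. Sdha, the flavoprotein, had 82.6 and 77.2 nt over 331 transcripts. Sdhb, the iron-sulfur protein, had 73.5 and 89.7 nt over 71. The membrane anchors differed from each other. Sdhc had 114 nt in each replicate over 45 transcripts. Sdhd had 71.3 nt over 4 transcripts in replicate 1 and 23.7 nt over 7 in replicate 2, the lowest pooled gene tail of any member (35.4 nt). Of its 11 transcripts, 2 had tails of at most 5 nt, and over tails of at least 15 nt the pooled value was 78.1 nt.

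Complex III passes electrons from ubiquinol to cytochrome c, which carries them to complex IV. Its redox-active nuclear subunits are cytochrome c1 (Cyc1), with 73.8 and 77.7 nt over 212 transcripts, and the Rieske protein (Uqcrfs1), with 99.1 and 77.4 nt over 57. The structural core proteins had short tails for members, with 86.0 and 86.6 nt for Uqcrc1 and 73.5 and 77.9 nt for Uqcrc2. Much longer tails belonged to the accessory subunits Uqcr11 (ENSMUSG00000020163, chromosome 10, 80402997 to 80406830), with 135 and 124 nt over 86 transcripts, and Uqcrq, with 105 and 114 nt over 216. Small size did not go with tails as long as these throughout, as Uqcr10 had 97.2 and 94.5 nt and Uqcrb 84.0 and 67.5 nt. The value of Uqcrb rested in part on 3 reads with tails of 1 to 5 nt. Over tails of at least 15 nt, Uqcrb had 91.3 nt. Complex III thus held both the longest member, Uqcr11 at 128 nt, and 2 of the 5 shortest deeply read members, Cyc1 and Uqcrc2. The carrier Cycs, cytochrome c itself, had 84.8 and 91.1 nt over 225 transcripts.

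Over complexes I to III, the median gene tail was 85.1 nt for 13 redox-active core genes. It was 102 nt for the 44 accessory genes of complexes I to IV. These include the 12 genes of complex IV, with a median of 109.7 nt and no core gene here. Accessory genes of complex I had a median of 99.9 nt and those of complex III 96.1 nt. Between the core set and the whole accessory set, replicate 1 showed a difference of 22.9 nt and replicate 2 of 11.4 nt. Together this gave 17.1 ± 8.08 nt (mean ± SD, n = 2). Core genes were also the longer genes, with a median coding length of 825 nt against 357 nt. The parts of length and of complex IV in this difference were not tested.

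Gene tails tended to be shorter in members with a longer coding length. Across the 73 genes Spearman's rho was -0.55 pooled, -0.67 in replicate 1 (66 genes) and -0.50 in replicate 2 (69 genes). These points share libraries and often complexes, and genes are not independent replicates. Other genes showed the same direction, with a rho of -0.38 over 6681 genes. Within complexes, pooled rho was -0.46 in complex I (32 genes), -0.58 in complex V (15 genes) and -0.04 in complex IV (12 genes). These values moved with the replicate, with -0.61 and -0.28 in complex I, -0.86 and -0.59 in complex V, and -0.38 and -0.02 in complex IV, so the complexes could not be told apart by them. The annotated length of the 3′ untranslated region gave -0.08 and the number of transcripts -0.10 across members.

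Members are short genes, with a median coding length of 432 nt against 1359 nt for the other tested genes, so they were also set beside genes of like coding length. Up to 300 nt, the median gene tail was 109.2 nt for 19 members against 96.7 nt for 124 others. From 300 to 500 nt, 24 members had 100.4 nt against 88.0 nt for 436 others. From 500 to 800 nt, the medians were 95.4 nt for 15 members and 82.7 nt for 953 others. From 800 to 1500 nt, they were 86.3 nt for 11 members and 76.9 nt for 2210 others, and above 1500 nt 82.7 nt for 4 members and 67.7 nt for 2958 others. Members were the longer-tailed in each of the 5 classes, and medians fell from class to class in both groups.

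With a coding length of at most 600 nt, the median gene tail was 104 nt for 52 members (106 and 103 nt by replicate) against 88.0 nt (90.7 and 86.7 nt) for 879 others, so the members lay higher in both replicates. In that range 33 members exceeded 100 nt (63.5%), as did 22.9% of the others. Annotated transcript length gave a smaller gap at the short end. For transcripts of at most 600 nt, the median was 103.7 nt for 17 members and 102 nt for 47 others, and by replicate 109.5 against 110.1 nt and 103 against 101.9 nt.

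**Figure D3:**
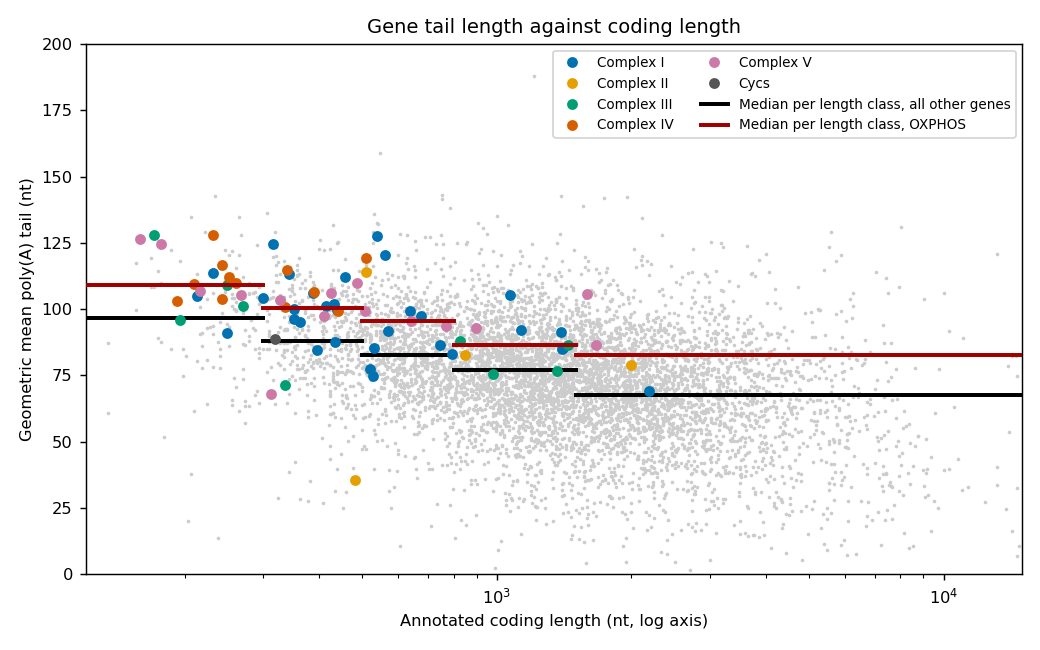
Gene tail length in nt against annotated coding length in nt (log axis), with members coloured by complex and other tested genes in grey. Horizontal lines are medians per length class, which are higher for members (109.2, 100.4, 95.4, 86.3 and 82.7 nt) than for the other genes (96.7, 88.0, 82.7, 76.9 and 67.7 nt) in every class.

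Other genes of the mitochondrial system had lower median gene tails. Factors that assemble OXPHOS complexes but are not part of them had a median of 86.9 nt for the gene tail, over 35 of 50 listed genes with enough transcripts. Of these, 26 lay over 75 nt and 6 over 100 nt. The lowest pooled value was 54.6 nt for Cox18, which helps insert complex IV subunits into the membrane, but it was 4.93 nt over 3 transcripts in replicate 1 and 99.5 nt over 12 in replicate 2. The highest belonged to Atpif1, with 115 and 118 nt over 217 transcripts. Atpif1 encodes an inhibitor of ATP synthase rather than an assembly factor, but was counted in this list. Members exceeded assembly factors by 15.6 nt in replicate 1 and by 3.20 nt in replicate 2. The mean was 9.41 nt with an SD of 8.78 nt, so the size of the difference was not settled by these replicates. Over single transcripts, medians by replicate were 109 and 107 nt for the listed factors, against 109 and 110 nt for members. The difference was not matched for coding length (medians of 693 nt against 432 nt). Only 10 of the 35 factors had 10 or more transcripts in each replicate.

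Mitochondrial ribosomal proteins had a median of 87.4 nt (74 genes), cytosolic ribosomal proteins 89.7 nt (70 genes) and mitochondrial import proteins 80.3 nt (20 genes). Members exceeded them by 11.6 ± 2.73, 8.996 ± 2.72 and 21.8 ± 4.06 nt (mean ± SD, n = 2). Each difference had the same sign in both replicates and was larger than their spread. The differences were not matched for coding length. In classes up to 300, 500, 800 and 1500 nt, members had medians of 109.2, 100.4, 95.4 and 86.3 nt. Mitochondrial ribosomal proteins had 109.8 (3 genes), 89.7, 90.3 and 77.2 nt, and cytosolic ones 105.7, 85.7, 82.4 and 90.5 nt (9 genes). Members lay below the former in the first class and below the latter in the last. From 500 to 800 nt, mitochondrial ribosomal proteins were longer in replicate 1 only (91.1 against 89.1 nt). The subunits Ndufab1 and Usmg5, which the symbol rule leaves out, had 85.1 nt over 13 transcripts and 109.8 nt over 32.

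The mitochondrially encoded subunits of the same complexes had shorter tails in these data. These mRNAs are tailed inside the organelle by another enzyme. Over 71116 transcripts, mt-Cytb (complex III) had a median tail of 70 nt in the first replicate and 71 nt in the other. For mt-Co1 (complex IV) it was 71 and 67 nt, for mt-Nd4 (complex I) 57 and 56 nt, and for mt-Co2 57 and 58 nt. Reads of mt-Nd6, which is known to lack a regular tail, had a median of 3 nt, and no transcript was assigned to mt-Nd4l or mt-Atp8. The medians of nuclear transcripts were 112 and 111 nt in complex I and 103 and 102 nt in complex III. In complex IV they were 127 and 126 nt. Each was above the medians given here for mitochondrial genes of that complex, in both replicates. Single nuclear genes came closer, as Cyc1 (complex III) with medians of 76 and 85 nt.

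Single transcripts gave the same picture for members against other genes. Over all member transcripts the median tail was 109 nt (replicate 1) and 110 nt (replicate 2), and it was 90 nt in each replicate for the other nuclear protein-coding genes. Tails over 90 nt made 62.8% (61.5 to 64.1) and 63.7% (62.6 to 64.7) of member transcripts, against 49.8% of the others in each replicate. At the long end the gap closed, as tails over 200 nt made 2.83% and 2.36% of member transcripts and 2.60% and 2.25% of the others. By complex, 75.7% (73.4 to 77.9) of complex IV transcripts and 53.9% (49.4 to 58.4) of complex II transcripts had tails over 90 nt. Complexes I and V changed places relative to their gene tails. Transcript medians by replicate were 112 and 111 nt in complex I against 107 and 108 nt in complex V. Atp5a1 and Atp5b together gave 31.5% of the member transcripts, and without them the median was 111 nt.

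**Figure D4:**
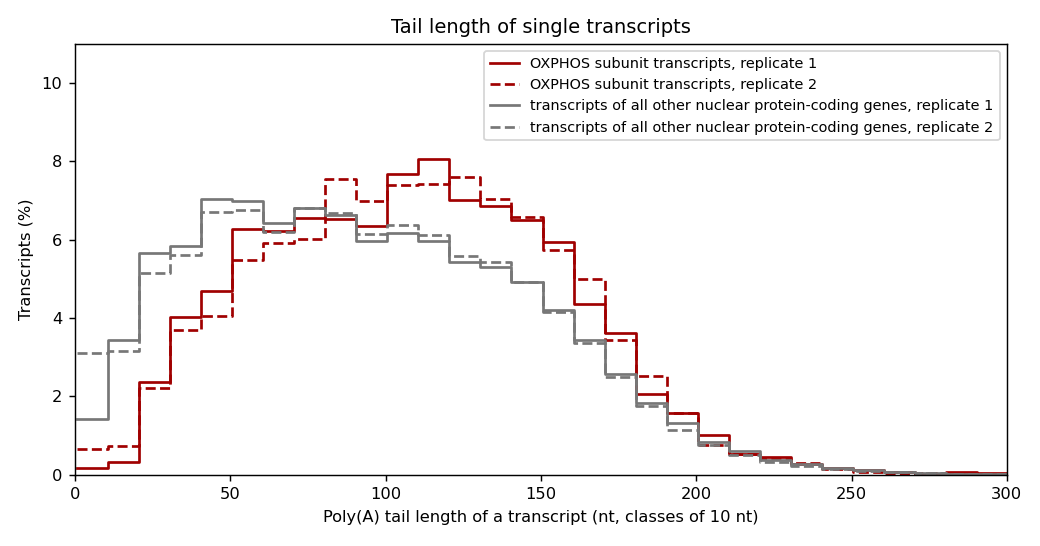
Share of transcripts in % per 10-nt class of tail length in nt, for member transcripts (red) and transcripts of all other nuclear protein-coding genes (grey), with replicate 1 as solid and replicate 2 as dashed lines. Member transcripts are fewer among short tails and more frequent around their medians of 109 nt (replicate 1) and 110 nt (replicate 2), and the curves come together above 200 nt.

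Very short tails were rare among members. Tails of 1 to 5 nt made 5 of 5167 transcripts in replicate 1 (0.0968%, 0.0413 to 0.226) and 43 of 7667 in replicate 2 (0.561%, 0.417 to 0.755). Other nuclear protein-coding genes had 1.01% and 2.59%, and those with a coding length of at most 600 nt 0.494% and 1.30%. Mitochondrial ribosomal proteins had 0.332% (0.161 to 0.683) and 0.617% (0.380 to 1.00), with intervals that overlap those of the members. Replicate 2 held the larger share in each of these groups. The 48 reads came from 18 genes, with 15 from Atp5a1, 7 from Ndufa4 and 4 from Ndufs1, while 55 of the 73 members had none.

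The base composition of tails was read from the same sequences. The 4 short tails printed here show what was scored as a terminal T, which corresponds to U in RNA. They read from 5′ to 3′, with non-A bases in capitals.
Cox5b, replicate 2: aaaaaaaaaaaaaaaaaaaTT
Cox6a1, replicate 2: aaaaaaaaaaaaaaTTT
Ndufs1, replicate 1: aaaaaaaaaaaaaaaaaaT
Sdha, replicate 2: aaaaaaaaaaaaaaaaaaaaaaT

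Among member tails of 6 to 30 nt, 28 of 375 ended in T (7.47%, 5.22 to 10.6), 8.39% in replicate 1 and 6.90% in replicate 2. Other nuclear protein-coding genes had 15.8% pooled, 18.9% in replicate 1 and 14.0% in replicate 2, so members were lower in both. Other genes with a coding length of at most 600 nt had 10.5% (9.61 to 11.5), and the members' interval overlaps theirs. Cytosolic ribosomal proteins had 4.89% (3.31 to 7.17). The 28 reads came from 14 genes, of which Atp5a1 gave 7, Ndufs1 5 and Sdha 4. In tails over 60 nt, a last base T was found in 1.78% of member tails and 1.74% of the others.

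Non-A bases inside the tail, neither first nor last, are shown by a pair of tails with a single G, in Cox6b1 close to the 3′ end and in Atp5o close to the 5′ end.
Cox6b1, replicate 2: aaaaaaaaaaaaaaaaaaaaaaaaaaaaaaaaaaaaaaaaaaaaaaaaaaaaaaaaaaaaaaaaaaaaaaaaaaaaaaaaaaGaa
Atp5o, replicate 1: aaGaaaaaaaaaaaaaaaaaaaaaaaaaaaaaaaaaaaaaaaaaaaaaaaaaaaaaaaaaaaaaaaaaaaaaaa

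An internal non-A base was found in 7.70% (7.01 to 8.46) of member tails in replicate 1 and 6.86% (6.32 to 7.45) in replicate 2, against 8.34% and 6.99% of the others. An internal G was present in 2.13% and 2.22% of member tails against 1.88% and 1.77%. For T the order was the opposite, with 3.02% and 2.52% of member tails against 4.07% and 3.29%. Other genes with a coding length of at most 600 nt were close to members for T, with 3.29% and 2.60%. Mitochondrial ribosomal proteins had 3.13% and 2.28%, and cytosolic ones 2.46% and 2.39%. For G, the other genes of at most 600 nt had 2.01% and 1.79%. Member tails were longer, and these shares were not adjusted for tail length.

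Many subunit genes have near-identical copies in the genome, and reads can be assigned to either. A search with at least 95% identity found 45 copies of 23 members that are annotated as pseudogenes. Of these copies, 17 had reads, 1007 in all, with a median tail of 119 nt. For some subunits the copy held most reads. The complex IV subunit gene Cox7c had 66 transcripts and a gene tail of 103 nt, while its copy Gm12338, identical over 192 nt, had 510 transcripts and 113 nt. Ndufs5 had 0 transcripts and its copy BC002163 had 35 with 119 nt. Atp5l had 10 transcripts with 67.8 nt and its copy Gm10221 had 49 with 112 nt, and Uqcrb had 55 with 71.3 nt against 48 with 113 nt for Gm2962. The low values of both genes rest on few reads with tails of 1 to 5 nt, 1 in Atp5l and 3 in Uqcrb. Over tails of at least 15 nt, Atp5l had 100.3 nt and Uqcrb 91.3 nt, and by replicate the gene tail of Atp5l was 27.1 nt over 3 transcripts and 100.5 nt over 7. The median gene tail was 100.4 nt for members with a pseudogene copy (20 genes) and 99.2 nt for those without (53 genes). A further 3 near-identical copies are annotated as protein-coding, and Gm11273, the copy of Cox5b, had 158 transcripts with 109.2 nt against 48 with 106 nt for Cox5b itself.

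**Figure D5:**
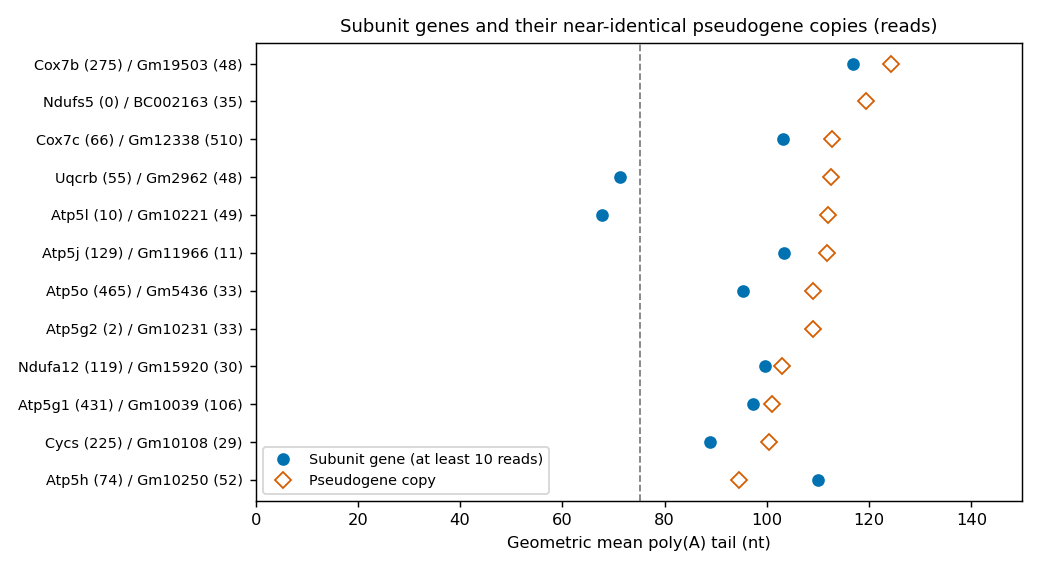
Gene tail length in nt of subunit genes (filled circles, at least 10 transcripts) and of their near-identical pseudogene copies with at least 10 transcripts (open diamonds), with the number of transcripts in brackets. The dashed line is the median of all other nuclear protein-coding genes (75.3 nt), and the copies of Atp5l (112 nt) and Uqcrb (113 nt) lie above it where the pooled values of the genes, which rest on few very short tails, lie below.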

How the data were processed

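Poly(A) tails were measured by PAIso-seq in 1 sample of wild-type 24h-EpiLCs that pooled 2 barcoded replicates. The authors made circular consensus reads, split them by barcode, aligned them to mm10 and took the bases past the 3′ end of the alignment as the tail, which they extended into adjoining A tracts where needed. Reads without a tail, and tails poor in A at their start, were left out according to the methods. The submitters' processing notes name minimap2 2.17 and featureCounts 2.0.1. The deposited table gives, per read, the gene, the number of passes and how many A, T, C and G bases the tail has (counts) with its sequence, without normalization. A bases encoded in the genome next to a cleavage site cannot be told apart from added ones, and consensus errors in long A runs limit the length of a single tail.

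Tail length was the sum of the base counts. Reads with at least 7 passes were used. Of 12842 gene identifiers, 12835 were found in GENCODE vM21. A gene tail was the geometric mean over at least 10 transcripts of both replicates together. Intervals of a gene tail are 95% normal intervals on the log scale over its transcripts, and intervals of shares are Wilson intervals. Near-identical copies were found with blastn 2.17.0, at 95% identity or more over at least 300 nt or 80% of the copy. With 1 group, no test was run and no p-value was computed. Values are compared with the SD of the 2 replicates.

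The members and gene lists were chosen with earlier results of these data known. Genes were named by rule. The rule took the 5 longest and the 5 shortest gene tails among members having 30 or more transcripts per replicate, the 2 members with most transcripts per complex, complex II, Cyc1, Cycs, the nuclear catalytic core and F1 subunits, paralogue sets, and the largest replicate difference. The values of 1 member that this rule names are not reported here. Other members, such as Ndufs4, Ndufb9, Uqcr10, Uqcrb, Atp5l, Cox5a, Cox5b, Cox7c, Ndufs5 and Atp5o, were named after their values were seen. Alternatives changed the summary per gene, the passes, the shortest tail, the transcripts per gene, the length, the membership, the assignment of copies and the replicates used. The summaries were computed in Python 3.11.15 with pandas 2.3.3 and numpy 2.4.6, after being tested on simulated data, and figures were drawn with matplotlib 3.10.9.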

Additional observations from a re-analysis of the deposited data

Results flagged for a closer look

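A pair of read sets outside the main measurement carried a signal. Reads assigned to near-identical pseudogene copies of the subunit genes numbered 1007, with 440 in replicate 1 and 567 in replicate 2, and their median tail was 119 nt. Whether they came from the copies or from the subunit genes was not tested. Reads of the subunit genes with fewer than 7 passes numbered 737, with 277 in replicate 1 and 460 in replicate 2. Median tails of these reads were 106 and 110 nt by replicate, next to 109 and 110 nt for the reads that were used.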

How the results depend on the processing

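Over 92 values recomputed under the alternatives, 63 moved by less than 1 SD of the replicates, 29 moved by more, and the difference between members and other genes kept its sign. Without replicate 2 complex III passed complex I, and without replicate 1 complex II passed complex III. In the main setting, members exceeded other genes by 24.4 nt. With the arithmetic mean per gene, the medians were 111 nt for members, 109 nt for complex I, 93.1 nt for complex II, 101 nt for complex III, 122 nt for complex IV and 114 nt for complex V, and the difference from other genes was 17.8 nt. With the median per gene they were 109, 106.5, 92.5, 104, 124.75 and 110 nt, and the difference was 21 nt. That difference was 25.1 nt with at least 15 passes, 18.4 nt for tails of at least 15 nt and 23.5 nt where 10 or more transcripts were required per replicate, for which complex I had 94.3 nt. Chosen after seeing the data, tails of at least 6 nt gave 20.6 nt, and copies counted with their member 25.5 nt. Without either replicate, the ranges were 97.3 to 99.5 nt for members, 21.8 to 22.6 nt for the difference, 92.1 to 94.7 nt for complex I, 82.6 to 89.7 nt for complex II, 86.6 to 95.5 nt for complex III, 108 to 115 nt for complex IV and 99.4 to 104 nt for complex V. The cause of these moves was not tested. Complex IV stayed above complex V in all these settings, none of which matched coding length. No paired analysis was possible because the data hold a single group. Depth limits the genes under 30 transcripts most.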
